A study of Mus musculus with 5 samples.

Results

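Compact myelin and myelin membrane proteins are followed here through 7 genes chosen by name: Mbp, Cnp, Mog, Mag, Cldn11, Bcas1 and Ugt8a. They are 7 of the 18527 genes in the deposited TPM table. Of these 7, 5 (Cnp, Mog, Mag, Bcas1 and Ugt8a) are also among the 10329 genes of the deposited count table, and Mbp and Cldn11 were read from the TPM table alone. The tissue was acute hippocampal-cortical slices from C57BL/6N males, wild type and aged 28 to 35 days, and 1 ribosome profiling library was made at each of 0, 5, 10, 30 and 60 min of 20 µM homoharringtonine (HHT). All 5 groups share the slicing, 3 to 4 h of recovery in artificial cerebrospinal fluid, and the pooling of 10 slices from 2 to 3 mice. HHT stops ribosomes that have just started on an mRNA and lets those further along run off, so ribosome-protected fragments (footprints) along a coding sequence are known to decline after it. No library of slices kept in vehicle alone (0.05% DMSO) for 5 to 60 min was analysed here, so time on HHT and further time in the bath cannot be told apart.

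Myelin is the many-layered membrane that oligodendrocytes wrap around axons in the brain. Its layers are pressed together on the inner face by myelin basic protein (Mbp), sealed at their edges by tight junctions of claudin 11 (Cldn11), and rich in galactosylceramide, a lipid made by the enzyme encoded by Ugt8a. Cnp encodes an enzyme that keeps cytoplasmic channels open between the layers, Mag an adhesion protein that faces the axon, Mog an immunoglobulin-domain protein of the outermost surface, and Bcas1 a cytoplasmic protein that marks oligodendrocytes beginning to myelinate. Mbp mRNA is known to travel in granules into oligodendrocyte processes and to be translated there, whereas membrane proteins such as Mog and Mag are made at the endoplasmic reticulum.

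In GRCm38.p6, the assembly behind the mm10 build of the files, Cnp lies on chromosome 11 (100574909 to 100591875), Mog on chromosome 17 (37010740 to 37023398), Mag on chromosome 7 (30899175 to 30914922) and Bcas1 on chromosome 2 (170343973 to 170427911). Ugt8a and Cldn11 both lie on chromosome 3, at 125865272 to 125938682 and 31149920 to 31164326. The counted transcripts were NM_009923 for Cnp, NM_010814 for Mog, NM_010758 for Mag, NM_029815 for Bcas1 and NM_011674 for Ugt8a. Their coding lengths were 1263 nt for Cnp, 744 nt for Mog, 1749 nt for Mag, 1902 nt for Bcas1 and 1626 nt for Ugt8a. The authors left out 600 nt of each coding sequence, so 663, 144, 1149, 1302 and 1026 nt of these were counted.

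Total counts were 7155147, 2787749, 2022152, 1504748 and 1346175 at 0, 5, 10, 30 and 60 min. As 1 library stands for each time, no difference between times has a replicate check, and intervals are exact 95% intervals for counting error alone. A pair of scalings is used. TMM scaling sets the typical mRNA level, so its log2 folds are relative to other mRNAs, and all 4 folds of a gene share the 0 min library. The mitochondrial scaling sets each library to the summed TPM of 6 mRNAs translated by mitochondrial ribosomes, which HHT does not target, and shows how much signal was left; on it the median of 9444 mRNAs was 0.330, 0.272, 0.228 and 0.182 of its 0 min level after 5, 10, 30 and 60 min. In these bulk libraries, fewer ribosomes on an mRNA, less of that mRNA and fewer of the cells that make it cannot be told apart. Neuronal and glial markers of cortex and hippocampus were present, Slc17a7 of glutamatergic neurons with 6302 counts and Slc1a2 of astrocytes with 28406 at 0 min. Prx, which marks Schwann cell myelin of peripheral nerve, is listed at 0 TPM in all 5 libraries, but so is the neuronal gene Snap25, so a listed 0 gives no level.

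Before HHT, the 5 counted myelin genes stood high in the order of footprints per length. Per kilobase of counted coding sequence, Cnp had a level of 13640 counts (interval 13360 to 13920) at 0 min, the rank 67 of 10329 genes. Mag had 5443 (5309 to 5580), rank 240, Mog 2340 (2097 to 2604), rank 646, Ugt8a 2154 (2065 to 2246), rank 701, and Bcas1 1411 (1347 to 1477), rank 1139. Mog and Ugt8a did not differ beyond counting error, and the other neighbours in this order did. Mbp, which has no row in the count table, had 6775 TPM at 0 min, the rank 4 of 18527 genes, against 1423 TPM for Cnp on that scale. The length by which the Mbp value was divided is not known here, and its rank depends on that length.

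After 60 min of HHT the order by counts was another one. On the mitochondrial scaling, the levels per counted kilobase at 60 min were 780.9 for Bcas1 (733 to 831.1), 420.2 for Cnp (371.7 to 473.3), 387.4 for Mag (351.8 to 425.7), 251.5 for Ugt8a (221.3 to 284.6) and 85.67 for Mog (44.27 to 149.6). By counts per kilobase Bcas1, lowest of the 5 at 0 min, was highest at 60 min, and the intervals of Cnp and Mag overlapped. In TPM, Bcas1 was also highest of the 5 at 60 min (461), but at 0 min its 257 TPM lay above the 221 TPM of Ugt8a.

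**Figure D1:**
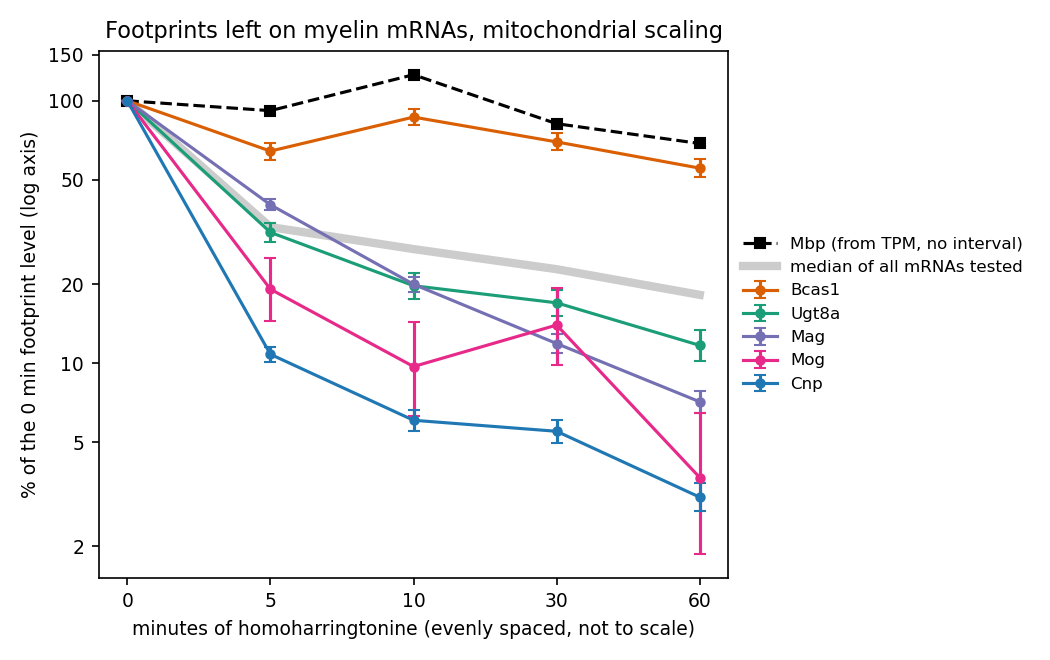
Footprints left on 6 myelin mRNAs in percent of the 0 min level (log axis), by minutes of HHT, with libraries scaled to 6 mitochondrially encoded mRNAs. Points are single libraries, bars are exact 95% counting intervals, Mbp (dashed, from TPM) has none, and the grey line is the median of 9444 mRNAs. Mbp and Bcas1 lie above the grey line at all 4 times, with 0.687 of the level of Mbp and 55.4% of that of Bcas1 left at 60 min, while Cnp ends at 3.08%.

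Mbp, the gene of the protein that holds the layers of compact myelin together, kept most of its TPM signal on the mitochondrial scaling. Its TPM ran 6775, 21221, 29850, 22644 and 22887 through the 5 times. The value at 0 min was the lowest of the 5 and the value at 10 min the highest. Mbp made up 2.29% of all TPM at 60 min, where Mbp ranked 2, against 0.677% at 0 min. TPM is divided by length, so these are not shares of all footprints. Divided by the summed TPM of the 6 mitochondrial mRNAs, the Mbp signal was 0.917, 1.26, 0.818 and 0.687 of its 0 min value after 5, 10, 30 and 60 min. Among the 1906 genes with at least 100 TPM at 0 min, 13 had a larger log2(TPM + 1) difference than Mbp after 5 min (1.65), 9 after 10 min (2.14), and 19 after both 30 min (1.74) and 60 min (1.76). The median difference of those genes was -0.302, -0.429, -0.256 and -0.240 at the same times. The 1906 genes include the 6 mitochondrial mRNAs of the scaling, which HHT does not target and which had 115 to 1253 TPM at 0 min.

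The slope of Mbp on log2(minutes + 1) was 0.29 (SE 0.0936) on the log2(TPM + 1) scale and missed the threshold over all 8188 genes tested (limma, adjusted p = 0.402). No gene was called higher in that fit (0% of genes), 438 had an upward slope at an unadjusted p under 0.05, and Mbp was one of them (unadjusted p = 0.02, limma, higher at 4 of 4 treated times). Without the 0 min library the slope was -0.02 (adjusted p = 0.886), and with TPM divided by the mitochondrial sum it was -0.08 (adjusted p = 0.267, limma). Neither the counted coding length nor the read number behind the Mbp values is known here, so they carry no counting interval. Which Mbp transcripts were counted is not known either, and whether the values stand for the Mbp of compact myelin was not tested.

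Cldn11 is listed at 0 TPM in all 5 libraries and has no row in the count table, so its counted length is not known here. As for Snap25, a synaptic protein gene that neurons use throughout the brain, that 0 gives no level.

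Cnp, the myelin enzyme, had the smallest share of its footprints left among the 5 counted genes at each time. From 0 to 60 min its 5 libraries held 9041, 969, 452, 433 and 271 counts. On the mitochondrial scaling 10.8% of its level (10.1 to 11.5) was left after 5 min, then 6.05% (5.49 to 6.65), 5.49% (4.98 to 6.05) and finally 3.08% (2.72 to 3.48). Most of the difference thus lay within the first 5 min, and 10 and 30 min did not differ beyond counting error. Relative to other mRNAs its log2 folds were -1.58 (-1.68 to -1.49), -2.14 (-2.28 to -2.01), -2.05 (-2.20 to -1.92) and -2.57 (-2.75 to -2.40) at 5, 10, 30 and 60 min. Over the 5 libraries it had a TMM-scaled slope of -0.41 (SE 0.0724), which missed the threshold at an adjusted p of 0.0977 by edgeR's quasi-likelihood test. Without the 0 min library that slope was -0.22 (adjusted p = 0.0999, edgeR).

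Mog, on the outer surface of the myelin sheath, rests on the fewest reads. The libraries from 0 to 60 min held 337, 64, 27, 41 and 12 Mog counts, lowest at 60 min. The mitochondrial scaling left 19.1% (14.4 to 25.1), 9.70% (6.30 to 14.4), 13.96% (9.84 to 19.3) and 3.66% (1.87 to 6.48) at 5, 10, 30 and 60 min. At 60 min the interval of Mog held that of Cnp. Its log2 fold at 60 min against 0 min was -2.24 (-3.29 to -1.499).

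Mag, the adhesion protein that faces the axon, kept more of its signal at 5 min than Cnp and Mog did. Mag counts were 6254, 2491, 1032, 647 and 433 through the 5 times, each lower than the one before. With the mitochondrial scaling 40.1% (38.3 to 42.1) was left at 5 min, above the median of all mRNAs, then 20.0% (18.7 to 21.3), 11.9% (10.9 to 12.9) and 7.12% (6.44 to 7.85) at 10, 30 and 60 min, below it. Its log2 folds relative to other mRNAs were 0.31 (0.25 to 0.38), -0.42 (-0.52 to -0.32), -0.94 (-1.06 to -0.83) and -1.36 (-1.51 to -1.22), so the sign turned between 5 and 10 min.

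Ugt8a, the enzyme of galactosylceramide synthesis, had the log2 fold nearest to 0 of the 5 counted genes at 5, 30 and 60 min, and Mag did at 10 min. Its counts through the 5 times, 2210, 691, 360, 327 and 251, were each lower than the one before. The share left on the mitochondrial scaling was 31.5% (28.9 to 34.3), 19.7% (17.6 to 22.1), 17.0% (15.1 to 19.1) and 11.7% (10.2 to 13.3). Relative to other mRNAs its log2 fold was -0.04 at 5 min, with an interval of -0.16 to 0.09 that includes 0. It was -0.44 (-0.60 to -0.28), -0.43 (-0.60 to -0.26) and -0.65 (-0.84 to -0.46) at 10, 30 and 60 min.

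Bcas1, of oligodendrocytes that begin to myelinate, stood at the other end. Its libraries held 1837, 1172, 1315, 1116 and 989 counts from 0 to 60 min, and the count at 10 min was above that at 5 min although that library had fewer reads. On the mitochondrial scaling 64.3% (59.7 to 69.2), 86.7% (80.7 to 93.1), 69.7% (64.6 to 75.1) and 55.4% (51.2 to 59.8) was left at 5, 10, 30 and 60 min. The value at 10 min was above that at 5 min beyond counting error, with a ratio of 1.35 (1.245 to 1.46). Relative to other mRNAs its log2 folds were 0.99 (0.89 to 1.10), 1.695 (1.60 to 1.80), 1.61 (1.499 to 1.72) and 1.59 (1.48 to 1.71), and the edgeR slope with TMM scaling, 0.28 (SE 0.0895), had an adjusted p of 0.245. Without the 0 min library it was 0.15 (adjusted p = 0.278, edgeR).

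The TPM table gave a lower share for Bcas1. Scaled to the mitochondrial sum, its TPM was 0.434, 0.672, 0.477 and 0.365 of the 0 min value at 5, 10, 30 and 60 min. For Cnp, Mog, Mag and Ugt8a the same TPM ratios at 60 min were 0.0307, 0.0366, 0.0711 and 0.117, close to the count-based shares. Counts per kilobase over TPM, relative to the median gene of the library, were 0.576, 0.854, 0.743, 0.842 and 0.874 for Bcas1 in time order, and 1.01, 0.998, 1.00, 1.00 and 1.01 for Cnp. RefSeq lists 2 curated transcripts for Bcas1, 2 for Cnp and 8 for Mag, and whether transcripts other than the counted one bear on this was not tested. On both tables Bcas1 lay above the median mRNA at all 4 times.

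**Figure D2:**
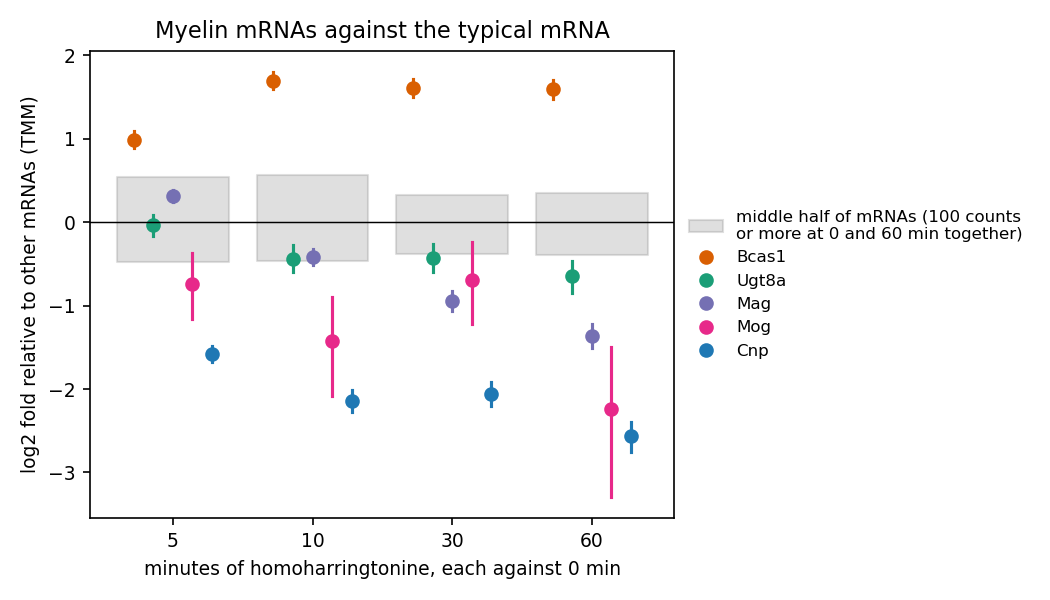
Log2 folds of the 5 counted myelin mRNAs at 5, 10, 30 and 60 min, each against 0 min and relative to other mRNAs (TMM scaling), with lines for exact 95% counting intervals. Grey boxes span the middle 50% of mRNAs with at least 100 counts at 0 and 60 min together. Bcas1 lies above the boxes at all 4 times (0.99 to 1.695), Cnp below them (-1.58 to -2.57), and Mag crosses from 0.31 at 5 min to -1.36 at 60 min.

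With the mitochondrial scaling, Cnp, Mog, Mag and Ugt8a fell along log2(minutes + 1), with slopes of -0.82 (SE 0.0885), -0.69 (SE 0.104), -0.65 (SE 0.0712) and -0.51 (SE 0.0697). Their adjusted p-values were 3.03e-04 for Cnp, Mag and Ugt8a and 3.26e-04 for Mog (edgeR quasi-likelihood test over 9444 genes). Without the 0 min library the slopes of Cnp and Mog were -0.47 and -0.46 (adjusted p = 2.86e-05 and 0.00203, edgeR). Bcas1 had a slope of -0.12 (SE 0.0722) and no call (adjusted p = 0.130). A fall was called for 93.8% of all genes in this fit, so 4 of 5 is near the background; Bcas1 is among the few without a call. Along minutes in place of log2(minutes + 1), only Cnp kept its call of these 4, and Mog, Mag and Ugt8a had adjusted p = 0.124, 0.0748 and 0.126 (edgeR). What share of all genes was called along minutes is not reported here, so the call of Cnp cannot be set against a background.

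Relative to other mRNAs, 0 of the 5 slopes passed the threshold, where 0.0106% of the 9444 genes (1 gene) were called lower. The slopes of Mog, Mag and Ugt8a were -0.28 (SE 0.0864), -0.26 (SE 0.0931) and -0.11 (SE 0.0650), with adjusted p = 0.242, 0.295 and 0.554 by edgeR's quasi-likelihood test. The unadjusted p of edgeR's quasi-likelihood test was 2.33e-04 for Cnp, 0.0104 for Mog and 0.0202 for Mag, with negative slopes, and 0.0110 for Bcas1, with a positive slope. Of all genes 518 had a negative slope at an unadjusted p under 0.05 and 637 a positive one. For the alternative fits that follow, the share of all genes called is not reported here, so their calls have no background. DESeq2's Wald test called Cnp lower (adjusted p = 0.00106). Without the 10 min library Cnp was called lower (adjusted p = 0.0455), and without the 0 min library Mag was (slope -0.47, adjusted p = 0.00722). By size, 1 of 5 was at least 2-fold lower at 5 min (Cnp), where 5.77% were among the 7632 genes whose 2 libraries summed to at least 100 counts. At 60 min Cnp, Mog and Mag were, against 5.08% of 7424 genes. Bcas1 was at least 2-fold higher at 60 min, as were 4.54% of those genes.

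The 5 genes also differed in the steps between neighbouring times. At 10 min against 5 min the ratio of mitochondrially scaled levels was 0.560 (0.5001 to 0.627) for Cnp, 0.507 (0.311 to 0.806) for Mog, 0.498 (0.463 to 0.535) for Mag and 0.626 (0.550 to 0.712) for Ugt8a, and 1.35 for Bcas1. At 30 min against 10 min the ratio was 0.594 (0.538 to 0.656) for Mag and 0.804 (0.742 to 0.872) for Bcas1, while those of Cnp, Mog and Ugt8a, 0.908 (0.794 to 1.04), 1.44 (0.864 to 2.43) and 0.861 (0.739 to 1.003), had intervals that include 1. At 60 min against 30 min the ratios were 0.561 for Cnp, 0.262 for Mog, 0.600 for Mag, 0.688 for Ugt8a and 0.794 for Bcas1, and every one of these 5 intervals ended below 1.

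Counts of 2 genes in the same library need no scaling between libraries. Bcas1 had 0.203 counts for each count of Cnp at 0 min (0.193 to 0.214), then 1.21, 2.91, 2.58 and finally 3.65 (3.19 to 4.19) after 60 min, an 18.0-fold shift. In TPM the shift was smaller, from 257 for Bcas1 against 1423 for Cnp at 0 min to 461 against 215 at 60 min. The ratio of Ugt8a to Cnp lay between 0.713 and 0.926 at the 4 treated times, against 0.244 (0.233 to 0.256) at 0 min. For Mag it was 0.692 (0.670 to 0.714) before HHT, 2.57 (2.39 to 2.77) after 5 min and 1.60 (1.37 to 1.87) after 60 min. Mog over Cnp was 0.0373 (0.0333 to 0.0416), 0.0660 (0.0505 to 0.0851), 0.0597 (0.0389 to 0.0881), 0.0947 (0.0670 to 0.131) and 0.0443 (0.0226 to 0.0786) in time order, so the interval at 60 min held the value at 0 min. In TPM, Mbp over Cnp was 4.76, 40.1, 98.5, 70.8 and 106 in time order.

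Ribosomes on a short coding sequence have less far to run, so each gene was placed among genes of like length, those with at least 0.8 of its coding length and at most that length divided by 0.8. In the authors' deposited table, 3.16% of 3132 genes of like length had a lower ratio than Cnp at 5 min and 1.88% at 60 min. For Mog the shares with a lower ratio in the authors' deposited table were 48.3% of 1361 genes at 5 min and 2.94% at 60 min. For Mag they were 79.5% of 2962 genes after 5 min, then 33.3%, 9.55% and finally 5.54% after 60 min (the authors' deposited table). Ugt8a had 59.5% of 3035 such genes below it at 5 min and 18.2% at 60 min, and Bcas1 97.5% of 2791 at 5 min and 98.5% at 60 min, in the authors' deposited table. Cnp was thus low and Bcas1 high for their length at both times, while Mog and Mag stood near or above the middle at 5 min and low at 60 min. The deposited ratios at 60 min were 0.0308 for Cnp, 0.0366 for Mog, 0.0711 for Mag, 0.117 for Ugt8a and 0.553 for Bcas1 in the authors' deposited table, where genes of like length had medians of 0.177, 0.178, 0.174, 0.174 and 0.174.

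**Figure D3:**
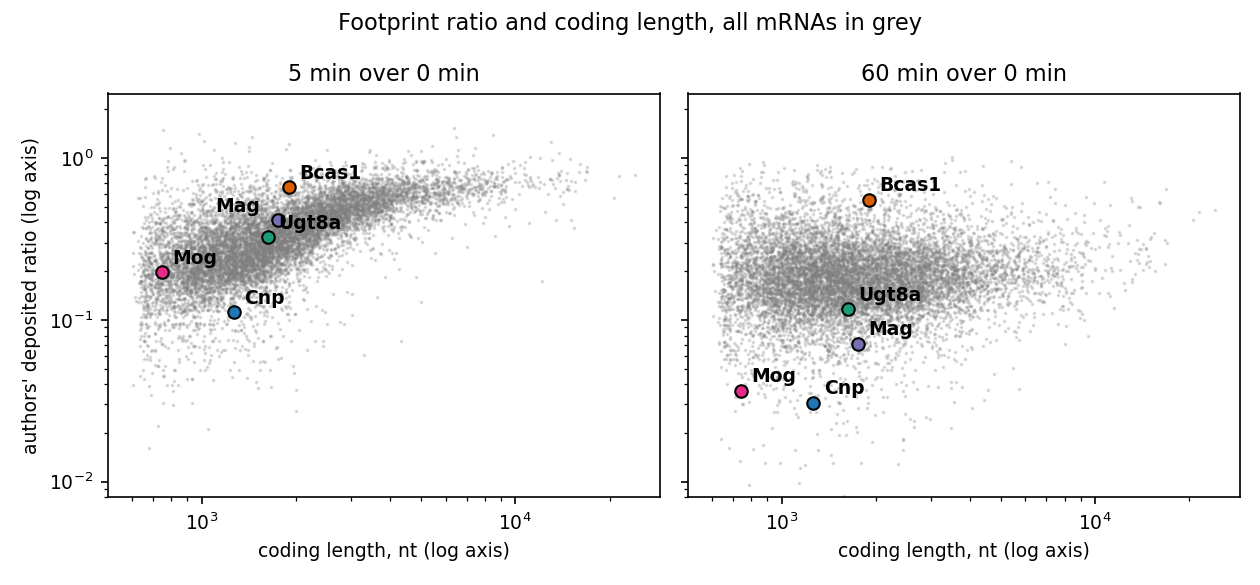
The authors' deposited ratio of footprint signal to 0 min (log axis) against coding length in nt (log axis), at 5 min and at 60 min, with all 10329 genes in grey and 5 myelin genes in colour; 102 genes at 60 min lie below the axis and are not drawn. Cnp (0.111 and 0.0308) lies in the lower edge of the cloud at both times and Bcas1 (0.661 and 0.553) in its upper edge, while Mag (0.413 and 0.0711) moves from its upper part to its lower edge.

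The genes whose 4 log2 folds lay nearest to each myelin gene, by Euclidean distance over 4 times among 7423 other genes, differed from member to member. For Cnp they were Fcrls, Hmox1 and Zfp36 (distances 0.475, 0.526 and 0.532), for Mog Creb3l2, Decr1 and Oser1 (0.384, 0.516 and 0.623), and for Mag Gpam, Pxk and Vwa5a (0.113, 0.129 and 0.234). The neighbours of Cnp had only 11, 2 and 14 counts at 60 min and those of Mog 6, 4 and 7, so their folds carry wide counting error. For Ugt8a they were Gpcpd1, E4f1 and Nln (0.0604, 0.0847 and 0.130), and for Bcas1 Kctd13, Fn1 and Espn (0.143, 0.154 and 0.176). In TPM, among 1905 genes, the nearest to Mbp were Phlda1, Irak1bp1 and mt-Cytb (0.333, 0.597 and 0.660), the last a mitochondrially encoded gene of respiratory complex III. No myelin gene of the lists used here is among these 18 names.

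Other genes of myelin were set beside the members by lists. Of 16 measured genes of other myelin membrane proteins, 13 had a log2 fold below 0 at 60 min, with a median of -0.96, where 4761 of all 9444 genes (50.4%) were below 0 with a median of -0.01. The lowest was Enpp6, a choline phosphodiesterase of young oligodendrocytes, with 12 counts at 60 min, against 273 at 0 min, and a fold of -1.94 (-2.99 to -1.19). Gpm6b, a membrane glycoprotein that neurons also make, was highest at 0.40 (0.32 to 0.48). All 16 were called lower on the mitochondrial scaling, near the 93.8% of all genes called there. With TMM scaling 0 were called; 5 had a negative and 0 a positive slope at an unadjusted p under 0.05, against 518 and 637 of all 9444 genes (edgeR quasi-likelihood test). Mobp, another protein of compact myelin, is not analysed here.

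Proteins of the myelin cytoplasm and cytoskeleton had a median of -0.90 at 60 min, with 15 of 18 measured genes below 0. Aspa, which splits N-acetylaspartate, was lowest, with 7 counts at 60 min, against 191 at 0 min, and a fold of -2.14 (-3.62 to -1.21). Anln, a septin-binding protein, was highest of those with at least 100 counts at 0.98 (0.70 to 1.29). On the mitochondrial scaling 17 of the 18 were called lower, also near the 93.8% of all genes, and the slope of the uncalled gene was negative too (-0.21). In the TMM-scaled fit 0 were called, 10 with an unadjusted p under 0.05 lower and 2 higher, beside the same 518 and 637 of 9444 genes (edgeR quasi-likelihood test).

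Enzymes and regulators of lipid synthesis, the pathways that supply Ugt8a and the membrane, had a median of -0.21, near the typical mRNA, at 60 min. Of 28 tested genes 18 were below 0. Fa2h, which hydroxylates the fatty acids of galactosylceramide, was lowest at -1.47 (-2.04 to -0.997), and Elovl6, a fatty acid elongase, highest at 0.93 (0.35 to 1.55). All 28 were called lower on the mitochondrial scaling, as were 93.8% of all genes. Relative to other mRNAs 0 were called, 4 with an unadjusted p under 0.05 lower and 1 higher, against 518 and 637 of 9444 (edgeR quasi-likelihood test).

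Oligodendrocyte lineage factors and receptors of precursor cells had a median of -1.13, with 13 of 14 tested genes below 0 at 60 min. Olig2, a transcription factor of the whole lineage, had 12 counts at 60 min, against 292 at 0 min, and a fold of -2.03 (-3.09 to -1.29). St18, highest at 0.16 (-0.33 to 0.63), had an interval that includes 0. At 5 min the median was 0.22, with 6 of 14 below 0. The summed CPM of 16 genes was 1837, 3201, 3475, 1435 and 1250 in time order, and without Ptprz1, a receptor phosphatase that astrocytes also make, 803.8, 1018, 836.1, 421 and 435.8. All 14 were called lower on the mitochondrial scaling, as were 93.8% of all genes. Relative to other mRNAs 0 were called, 6 with an unadjusted p under 0.05 lower and 0 higher, against 518 and 637 of 9444 (edgeR quasi-likelihood test). Whether the medians of these lists differ from that of the 5 counted members, -1.36, was not tested.

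**Figure D4:**
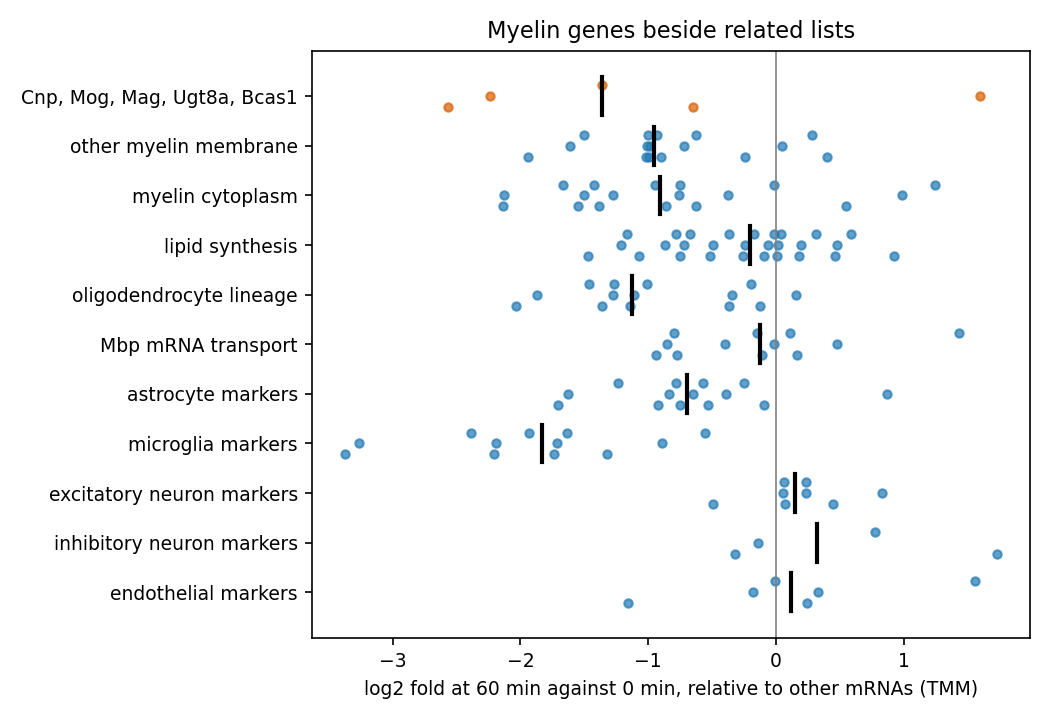
Log2 folds at 60 min against 0 min relative to other mRNAs (TMM scaling) of Cnp, Mog, Mag, Ugt8a and Bcas1 (orange) and of related lists (blue), 1 point per gene, with black bars for medians. The medians are -1.36 for the 5 myelin genes, -0.96 and -0.90 for other myelin lists, -1.13 for lineage genes and -1.84 for microglia markers, while neuronal and endothelial lists have medians above 0.

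Markers of other glia also lay mostly below 0. At 60 min 13 of 14 astrocyte genes were below 0 (median -0.70), from Sox9 at -1.70 to Ntsr2 at 0.87, and 12 of 12 tested microglia genes (median -1.84), from Laptm5 at -3.37 to Cd68 at -0.56. Laptm5 had 1 count at 60 min, with an interval of -9.57 to -1.74. Cd68 had 17 counts, with an interval of -1.40 to 0.15 that includes 0. Summed over each list, the TMM-scaled CPM was 6211 at 60 min against 9738 at 0 min for 14 astrocyte genes, and 188 against 709.4 for 13 microglia genes. For the 5 counted myelin genes the sums were 2468, 2108, 1811, 1613 and 1377 in time order. These sums mix opposite directions, as only Bcas1 was higher at 60 min (696.3, against 230.4 before HHT). Cnp had 190.8 at 60 min against 1134 before HHT, and Mag 304.8 against 784.4. Ugt8a had 176.7 against 277.2, and Mog 8.448 against 42.27. For excitatory neurons the sum was 5907 at 60 min against 4664 at 0 min, for inhibitory neurons 959.6 against 937.3, and for endothelial cells 1852 against 714.4. Without Bsg, which neurons and glia also make, the endothelial sum was 127.4 at 60 min against 128.7 at 0 min. Genes listed for excitatory neurons had a median of 0.15, with 1 of 8 below 0 and Slc17a7 highest at 0.83. Rbfox3, which inhibitory neurons also make, was the gene below 0, at -0.49. Inhibitory neuron genes had a median of 0.32 (2 of 4 below 0, Gad2 at -0.32 to Lhx6 at 1.73) and endothelial genes 0.11 (3 of 6, Pecam1 at -1.16 to Bsg at 1.56). The part of these cell types in the myelin results was not tested.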

How the data were processed

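Footprints of 5 libraries were analysed. The submitters' processing notes name Bowtie2 2.1.0, TopHat2 2.0.9, SAMtools 0.0.19, cutadapt 1.7.1, Trimmomatic 0.32 and the mm10 build; the deposited tables' names add RSEM. No source used here states what each tool did, whether strand was used or how shared reads were divided. Expected counts deposited by the authors are whole numbers, which rounding left as they were. The same deposited table holds a signal per gene, the count over the coding length less 600 nt and over 1 factor per library, and its ratio to 0 min. The second deposited table gives a score, TPM rounded to whole numbers. Other columns of the deposited tables were not used.

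Slopes on log2(minutes + 1) over the 5 libraries (3 residual degrees of freedom, holding library scatter and departures from a line together) were fitted to all genes with a mean of at least 10 counts with edgeR 4.0.16 (quasi-likelihood test, R 4.3.3), and to log2(TPM + 1) of genes with a mean of at least 10 TPM by limma 3.58.1, both with Benjamini-Hochberg adjustment and a threshold of 0.05. Folds used a prior count of 2. Mitochondrial factors came from mt-Co1, mt-Cytb and mt-Nd1, 2, 4 and 5, which were picked with their levels known, and differ from the deposited library factors by at most 2.83%. DESeq2 1.42.0 was an alternative.

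Named genes are the members, the highest and lowest gene of each list at 60 min with at least 100 counts at 0 and 60 min together, Mobp, and the 3 nearest patterns of each member; Slc1a2, Prx, Snap25, Egr2 and Ptprz1 were added after their values were seen, for the check of the tissue and of values at 0, to complete a short list or as the gene with the most counts of a list; sums without that gene were also added then. Some genes of the lists are not reported here by name. Members and lists were chosen with earlier results of these data known. The PCR copies of a read are not independent molecules, so intervals cover counting error only.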

Additional observations from a re-analysis of the deposited data

How the results depend on the processing

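Relative to other mRNAs, 0 of 5 members were called; DESeq2's Wald test called 1, and leaving out each library in turn gave 0 to 1. With the mitochondrial scaling 4 were called, and 4 in every fit without 1 library, with the deposited factors, with all mitochondrial genes and with no filter, but 1 on minutes in place of log2(minutes + 1). On the TPM scale 0 were called, and 4 once TPM was divided by the mitochondrial sum. How many of all genes the alternative fits called is not reported here, so these counts of members have no background. The median log2 fold of the 5 counted members under the mitochondrial scaling of counts was -1.66, -2.34, -2.79 and -3.81 at 5, 10, 30 and 60 min, against -0.04, -0.44, -0.70 and -1.36 relative to other mRNAs, and 0.11 at 5 min in log2(TPM + 1), the value of Ugt8a. The same change of scaling turned the sign of Bcas1 to -0.64, -0.21, -0.52 and -0.85 and that of Mag at 5 min to -1.32. The TPM slopes of Bcas1 and Mbp turned when divided by the mitochondrial sum, to -0.2121 for Bcas1 and -0.08118 for Mbp. The Mbp slope ran from -0.01901 (without 0 min) to 0.39 when each library was left out. No other result changed sign. Depth limits Mog most (12 counts at 60 min).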

Other observations

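Factors known to carry or bind Mbp mRNA had a median near the typical mRNA at 60 min, but single genes lay well below and above it. Of 12 measured genes 8 had a log2 fold below 0, with a median of -0.13. Hnrnpa2b1, the RNA-binding protein of the transport granules, was lowest, with 628 counts at 60 min, against 6768 at 0 min, and a fold of -0.94 (-1.06 to -0.82). Dync1h1, the dynein heavy chain, was highest, with 2940 counts at 60 min, against 6103 at 0 min, and a fold of 1.43 (1.37 to 1.499). On the mitochondrial scaling 11 of the 12 were called lower, near the 93.8% of all genes called there. Dync1h1 had a negative slope there too (-0.13), without a call. Relative to other mRNAs 0 were called, 1 with an unadjusted p under 0.05 lower and 1 higher, against 518 and 637 of all 9444 genes (edgeR quasi-likelihood test).

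Of the genes listed for peripheral nerve myelin, 3 were tested. Their folds at 60 min were -0.31 (-1.02 to 0.32) for Cdh19, -0.06 (-0.60 to 0.45) for Egr2, a gene that neurons also induce, and 0.42 (0.10 to 0.73) for Drp2.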
